A study of Mus musculus with 8 samples.

Results

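The unfolded protein response and chaperone genes are 39 named genes, out of 22050 genes with an mRNA model in the deposited tables. They were taken by symbol: 25 belong to the endoplasmic reticulum (ER) and its stress response, and 14 to the heat shock response and chaperones of the cytosol and mitochondria. All 39 were found, and 37 had enough reads to be tested. Their RNA was measured in haematopoietic stem cells (HSCs), the rare bone marrow cells that give rise to all blood lineages, from C57BL/6 mice. Of these libraries, 4 came from mice at 4 weeks of age and 4 from pups at postnatal day 5 (P5). The labels name no treatment or altered allele. Each library was made from 100 sorted cells that carried CD150 and EPCR on their surface and lacked CD48 and lineage markers. The labels do not say whether libraries of an age came from separate mice, so a p-value here is set against the spread of the samples as they are, part of which could be technical.

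Proteins that enter the ER are folded there by chaperones such as BiP, by protein disulfide isomerases and by the lectins calnexin and calreticulin, and those that fail to fold are sent back to the cytosol for degradation. When unfolded protein builds up, the sensors IRE1α, PERK and ATF6 start the unfolded protein response: IRE1α splices Xbp1 mRNA in the cytoplasm, PERK phosphorylates eIF2α and so favours translation of ATF4, and ATF6 is cut to release a transcription factor. In the cytosol, HSF1 induces HSP70, HSP90 and their cochaperones after heat or other protein damage. HSCs are known for a low rate of protein synthesis and for sensitivity to misfolded protein. Much of both responses runs through splicing, cleavage and phosphorylation, which counts of reads per gene do not show, and the splicing of Xbp1 mRNA was not analysed here.

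The best known control element of ER chaperone genes is the ER stress response element (ERSE), spelled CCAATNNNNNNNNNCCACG, which binds NF-Y at its first letters and ATF6 or XBP1 at its last. It was searched on both strands from 250 bases before to 50 bases after each annotated start, in the promoter sequences that RefSeq gives for GRCm38.p6. Of 32851 such promoters, 39 held it (0.119%). Of the 37 promoters listed for 32 of the members, 8 held it (21.6%), those of Hspa5, Hsp90b1, Calr, Canx, Pdia6, Dnajc3, Creld2 and Syvn1. No promoter was listed for Hyou1, Manf, Atf6, Hsf1, Hspa8, Hsp90aa1 and Hsp90ab1, so these members were not searched for any motif. The matches are shown to let the fixed ends and the free middle be compared, with the fixed letters in capitals and each written on the strand that reads CCAAT first.
Hspa5, 65 bases before the start, chr2:34772025-34772043, plus strand: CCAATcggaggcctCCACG
Dnajc3, 105 bases before the start, chr14:118937827-118937845, plus strand: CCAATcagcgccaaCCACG
Calr, 162 bases before the start, chr8:84847075-84847093, plus strand: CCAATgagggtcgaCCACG
Canx, 145 bases before the start, chr11:50325800-50325818, minus strand: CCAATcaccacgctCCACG
Hsp90b1, 212 bases before the start, chr10:86705638-86705656, minus strand: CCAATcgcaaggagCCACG
Hsp90b1, 107 bases before the start, chr10:86705533-86705551, plus strand: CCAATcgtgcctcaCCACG
Pdia6, 98 bases before the start, chr12:17266491-17266509, plus strand: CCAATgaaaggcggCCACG
Creld2, 126 bases before the start, chr15:88819520-88819538, minus strand: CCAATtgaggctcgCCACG
Syvn1, 44 bases before the start, chr19:6046532-6046550, plus strand: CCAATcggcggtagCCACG

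Further motifs were rarer among the members or matched elsewhere. The compact element ERSE-II, ATTGG and CCACG with any 1 base between them, was in 12 of all promoters (0.0365%) and in that of Herpud1. The core of the XBP1 element, TGACGTGG, was in 222 (0.676%) and in no member's promoter. The C/EBP-ATF element bound by ATF4 and CHOP, TGATGNAA, was in 1304 (3.97%), among them those of Herpud1 and Trib3. A heat shock element core, GAANNTTCNNGAA, was in 198 (0.603%). Among them were the overlapping windows of Hspe1 and of the second of 2 starts listed for Hspd1. The window of the first Hspd1 start held none, and the genes are transcribed away from each other. Both strands of the stretch that these 2 windows share held the core, and the matches overlap, so the run below is capitalised whole. A match is a description of letters and shows no binding.
Herpud1 ERSE-II, 52 bases before the start, chr8:94386377-94386387, plus strand: ATTGGgCCACG
Hspd1 and Hspe1 heat shock element, 89 bases before the Hspe1 start, chr1:55088059-55088076, plus strand: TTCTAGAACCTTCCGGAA

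The 250 bases before the start are given for Hspa5 and Dnajc3, which hold the ERSE (capitals) and were higher at 4 weeks, and for Xbp1 and Bag3, which changed most among members and held none of these motifs in the searched window. All are on the plus strand.
Hspa5, chr2:34771840-34772089: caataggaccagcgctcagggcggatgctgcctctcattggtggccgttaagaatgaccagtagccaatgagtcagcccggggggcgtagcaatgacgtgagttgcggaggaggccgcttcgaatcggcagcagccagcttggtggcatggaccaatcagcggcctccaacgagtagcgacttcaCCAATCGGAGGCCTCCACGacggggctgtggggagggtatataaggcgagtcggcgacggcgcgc
Dnajc3, chr14:118937682-118937931: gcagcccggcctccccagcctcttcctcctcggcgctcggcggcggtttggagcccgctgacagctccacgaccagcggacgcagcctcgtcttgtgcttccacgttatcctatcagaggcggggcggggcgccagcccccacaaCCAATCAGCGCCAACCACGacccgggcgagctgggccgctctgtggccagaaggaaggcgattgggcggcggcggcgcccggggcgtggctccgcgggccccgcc
Xbp1, chr11:5520391-5520640: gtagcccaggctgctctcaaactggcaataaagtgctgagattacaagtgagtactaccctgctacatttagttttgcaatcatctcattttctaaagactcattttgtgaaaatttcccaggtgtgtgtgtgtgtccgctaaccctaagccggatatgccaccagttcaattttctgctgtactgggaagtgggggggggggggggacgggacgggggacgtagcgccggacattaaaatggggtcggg
Bag3, chr7:128523333-128523582: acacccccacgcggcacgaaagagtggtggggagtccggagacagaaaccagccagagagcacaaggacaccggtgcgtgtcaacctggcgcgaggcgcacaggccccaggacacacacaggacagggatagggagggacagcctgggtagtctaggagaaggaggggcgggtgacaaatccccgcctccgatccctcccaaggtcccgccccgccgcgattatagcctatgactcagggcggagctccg

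The 8 libraries held between 5775130 and 7470777 exon reads. The gate genes Procr (EPCR) and Slamf1 (CD150) were present at both ages, and so was Kit, which the gate given above does not name. Ly6a (Sca-1), not named in that gate either, was 70.7 to 112 CPM at 4 weeks and 24.1 to 33.4 CPM at P5 (log2 fold change 1.53, adjusted p = 1.49e-05). Cd48 was at most 8.31 CPM at 4 weeks and at most 10 CPM at P5 (CPM, exon reads scaled to the size of the library). P5 replicate 2 stood apart in 5 monocyte and macrophage markers, whose sum was 220 CPM there, against 17.2 to 25 CPM at 4 weeks and 25 to 39.1 CPM in the other P5 libraries. The 7 erythroid markers summed to 84.6 to 179 CPM at 4 weeks and 574 to 905 CPM at P5, mostly through the globin Hbb-bt, which averaged 96.8 ± 21 CPM at 4 weeks and 710 ± 151 CPM at P5 (SD, n = 4 each), a change of -2.87 on the log2 scale (adjusted p = 1.29e-07). Car1, another of these markers, had 50.3 CPM in 4-week replicate 3, at most 0.345 CPM in the other 4-week libraries and no reads at P5. P5 replicates 1 and 3 had at most 2 reads of Y-linked genes, so they came from other mice than P5 replicates 2 and 4, and age and sex are partly mixed. P5 replicate 1 also had the lowest share of intron reads, 60.1%, against 66.8% to 68.7% in the other 7 libraries.

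At 4 weeks, 7 members were higher and 0 lower than at P5. They were Xbp1, the ER chaperones and cochaperones Hspa5, Hyou1, Dnajc3 and Sdf2l1, the heat shock factor Hsf1, and the HSP70 cochaperone Bag3. The 7 of 37 tested members stand beside 8.55% of all 12235 tested genes that were higher at 4 weeks and 7.99% that were lower (adjusted p under 0.05 by Benjamini-Hochberg, from the quasi-likelihood test of edgeR). Before adjustment, 13 of the 37 members had a p under 0.05, as had 29.9% of all tested genes. The median log2 fold change, 4 weeks over P5, was 0.163 over the tested members and 0.004 over all tested genes, and it was positive in 30 members and negative in 7, while 50.5% of all tested genes had a positive one. In 8 members every 4-week library lay above every P5 library, which held for 11.2% of all tested genes, and in 1, Atf4, every one lay below. In either direction, 21.2% of tested genes had no overlap. These counts, medians and shares describe a list that was chosen with results of these data known. When a term for Y-linked reads was added to the model, 2 of the 7 kept their call, Xbp1 and Bag3, at log2 fold changes of 1.07 and 1.82, and the P5 side then rests on replicates 2 and 4. The other 5 missed the threshold there with log2 fold changes near those without the term, 0.97 for Sdf2l1, 0.39 for Hyou1, 0.30 for Dnajc3, 0.27 for Hsf1 and 0.26 for Hspa5. In such bulk samples, more RNA per cell and more cells that hold the RNA cannot be told apart.

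**Figure D1:**
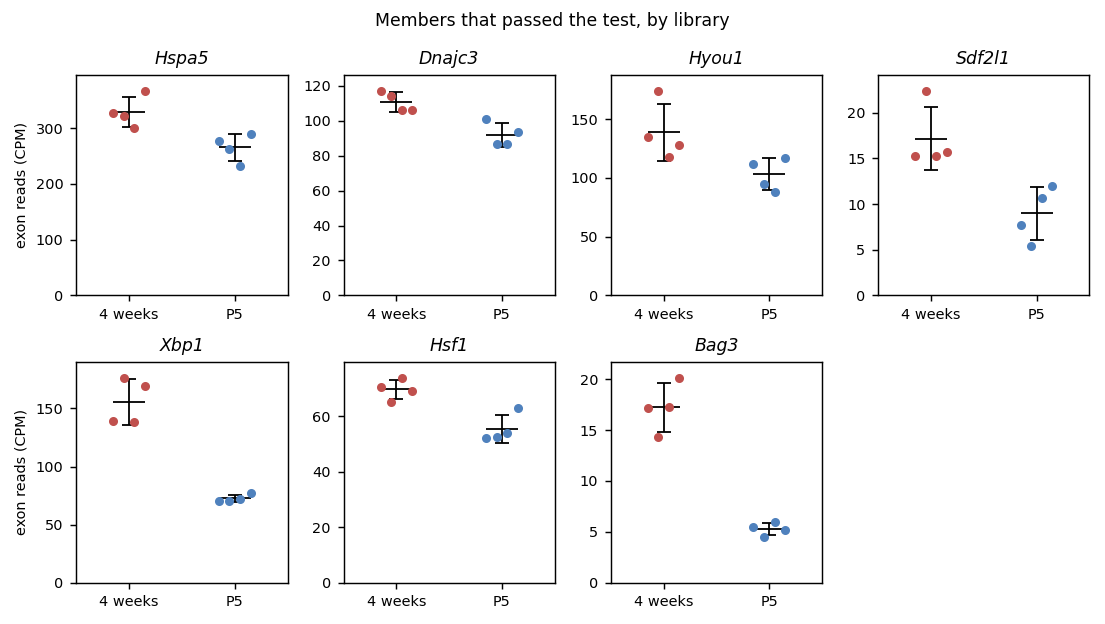
Normalised exon reads (CPM) of the 7 members that passed the test, with 1 point per library, 4 weeks on the left and P5 on the right. The black bar and whiskers are the mean and SD of 4 libraries. In each panel the 4-week points all lie above the P5 points, by a wide gap for Xbp1 (138 to 176 CPM at 4 weeks, 70.3 to 77.1 CPM at P5) and a narrow one for Hyou1 (118 to 174 CPM at 4 weeks, 88.4 to 117 CPM at P5).

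Among sensors and factors of the ER response, Xbp1 was 2.14-fold higher at 4 weeks. Its mRNA is spliced by IRE1α, and the spliced form encodes a transcription factor for ER chaperone and degradation genes. Xbp1 (chr11:5520641-5525993, GRCm38.p6, as for the other positions) had 139, 176, 138 and 169 CPM in 4-week replicates 1 to 4, against 70.3, 70.6, 72.4 and 77.1 CPM in P5 replicates 1 to 4. The P5 libraries lay close together and the 4-week libraries fell into a lower and a higher pair, with no overlap between the ages. The log2 fold change was 1.10 (SE 0.0962, adjusted p = 6.1e-06), and it kept its call under every alternative tried. Reads across exon junctions of Xbp1 numbered 556 over the 4-week libraries and 280 over the P5 libraries.

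Xbp1 is also known as a plasma cell factor. The summed level of 8 listed B and plasma cell markers was 32.7 to 51.2 CPM at 4 weeks and 61.1 to 92.8 CPM at P5, below the P5 range in every 4-week library. Of these markers, Mzb1 was at most 0.831 CPM at 4 weeks, against 2.1 to 7.23 CPM at P5, and Sdc1 was 4.42 to 10.6 CPM at 4 weeks, against 16.8 to 34.2 CPM at P5. Cd79a was near 0 at both ages, at most 0.841 CPM at 4 weeks and 0.311 CPM at P5. Prdm1, a plasma cell factor, was 0.689 to 5.89 CPM at 4 weeks, against 0.97 to 1.71 CPM at P5 (log2 fold change 1.16, adjusted p = 0.168). Of the list, 3 markers were lower at 4 weeks and 0 higher, and the part of such cells in the Xbp1 level was not tested.

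None of the 3 sensors passed the test. Ern1, which encodes IRE1α, had 193, 161, 202 and 221 CPM at 4 weeks, against 133, 226, 190 and 192 CPM at P5, for a change of 0.07 on the log2 scale (SE 0.139, adjusted p = 0.788). Eif2ak3, which encodes PERK, had 38.9, 45, 43.7 and 42.4 CPM at 4 weeks, against 42.7, 39.9, 38.8 and 41.3 CPM at P5 (log2 fold change 0.06, SE 0.104). Atf6 had 94.2, 87, 82.3 and 80.5 CPM at 4 weeks, against 88.6, 95.3, 81.6 and 73.2 CPM at P5 (log2 fold change 0.02, SE 0.0993). For all 3 the ages overlapped. Eif2ak4, the cytosolic kinase GCN2 that senses lack of amino acids, averaged 121 ± 7.24 CPM at 4 weeks and 127 ± 8.45 CPM at P5 (SD, n = 4 each).

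Downstream of PERK, no member passed the test. Atf4, the transcription factor whose translation rises when eIF2α is phosphorylated, had 103, 92.9, 97.4 and 92.3 CPM at 4 weeks, against 104, 134, 105 and 107 CPM at P5. The ages did not overlap, but the highest 4-week library lay just under the lowest P5 library, and the log2 fold change was -0.22 (SE 0.0959, adjusted p = 0.139). Without P5 replicate 2, the high one, it was -0.13 (adjusted p = 0.348). Ddit3, the factor CHOP that Atf4 induces, had 10.4, 7.07, 10.3 and 9.83 CPM at 4 weeks, against 9.82, 10.9, 4.85 and 11 CPM at P5, and the ages overlapped fully. Trib3, a pseudokinase induced by both, averaged 12.9 ± 2.31 CPM at 4 weeks and 8.24 ± 1.85 CPM at P5 (SD, n = 4 each) without overlap. The change of 0.65 on the log2 scale (SE 0.226) did not pass after adjustment (adjusted p = 0.0677), and passed without 4-week replicate 2 (0.73, adjusted p = 0.0496).

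Of the 13 ER folding members, 4 were higher at 4 weeks and 0 lower, beside 8.55% and 7.99% of all tested genes. Their median log2 fold change was 0.217. It was 0.151 over all ER members, 0.184 over the tested cytosolic and mitochondrial members and 0.004 over all tested genes. Sdf2l1, a component of ER chaperone complexes, changed most among the ER folding members. It had 15.3, 22.4, 15.3 and 15.7 CPM at 4 weeks, against 7.77, 5.44, 10.7 and 12 CPM at P5, and rested on 431 exon reads over the 4-week libraries and 243 over the P5 libraries. The log2 fold change was 0.93 (SE 0.245, adjusted p = 0.0186). Without 4-week replicate 2, the highest, it was 0.77 and missed the threshold (adjusted p = 0.0586). Sdf2l1 lies at chr16:17130138-17132383.

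Hspa5, which encodes the ER HSP70 BiP, had 327, 322, 301 and 367 CPM at 4 weeks, against 278, 263, 232 and 289 CPM at P5. All 4-week libraries lay above all P5 libraries, and the rise was 1.24-fold (log2 fold change 0.31, SE 0.0873, adjusted p = 0.0267). Hyou1, a large ER chaperone that helps BiP exchange nucleotide, had 135, 174, 118 and 128 CPM at 4 weeks, against 112, 95, 88.4 and 117 CPM at P5 (log2 fold change 0.43, SE 0.125, adjusted p = 0.0328). Its lowest 4-week value and its highest P5 value nearly met. Dnajc3, an ER J-domain cochaperone of BiP also called P58IPK, had 117, 114, 106 and 106 CPM at 4 weeks, against 101, 86.7, 86.5 and 93.3 CPM at P5 (log2 fold change 0.27, SE 0.0835, adjusted p = 0.0429). These 3 genes lie at chr2:34772090-34776529, chr9:44379490-44392369 and chr14:118937932-118981702.

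The calls of these 3 modest changes depended on single libraries. Hspa5 missed the threshold without P5 replicate 3, 4-week replicate 1 or 4-week replicate 4, at adjusted p between 0.0593 and 0.1. Hyou1 missed it without P5 replicate 2 or 3 or 4-week replicate 1 or 2, at adjusted p between 0.0624 and 0.0992, and Dnajc3 missed it without any library but P5 replicate 1, at adjusted p between 0.0614 and 0.119. Their direction held in every alternative.

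The other 9 ER folding members did not pass. Creld2, a secreted ER stress protein, averaged 26.8 ± 6.21 CPM at 4 weeks and 19.5 ± 2.82 CPM at P5 (log2 fold change 0.46, SE 0.181, adjusted p = 0.102). Hsp90b1, the ER HSP90 called GRP94, averaged 209 ± 19.6 CPM at 4 weeks and 180 ± 9.03 CPM at P5 (0.22, SE 0.0823, adjusted p = 0.0923). The disulfide isomerases gave log2 fold changes of 0.24 for Pdia4, -0.02 for Pdia3 and -0.16 for Pdia6. Calr and Canx, the lectins that hold glycoproteins during folding, gave 0.16 and 0.03. Manf, a secreted ER stress factor that also binds BiP, gave 0.15, and Dnajb9, a J-domain cochaperone that acts on BiP and IRE1α, gave 0.08. Of the 8 members with an ERSE in the searched window, Hspa5 and Dnajc3 passed, and the log2 fold changes of all 8 lay between -0.16 and 0.46.

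None of the 4 members of ER-associated degradation passed the test in exon reads. Herpud1, which organises the export complex, averaged 87.2 ± 7.35 CPM at 4 weeks and 75.8 ± 11 CPM at P5 (log2 fold change 0.20, SE 0.112). Syvn1, the ubiquitin ligase HRD1, averaged 71 ± 4.39 CPM at 4 weeks and 62.8 ± 6 CPM at P5 (0.18, SE 0.0993). Its partner Sel1l averaged 166 ± 6.79 CPM at 4 weeks and 159 ± 3.1 CPM at P5 (0.06, SE 0.0685), and Edem1, a mannosidase-like protein that marks glycoproteins for removal, 85.7 ± 12.7 CPM at 4 weeks and 84.8 ± 13.1 CPM at P5 (0.02, SE 0.127). All errors are SD over 4 libraries.

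**Figure D2:**
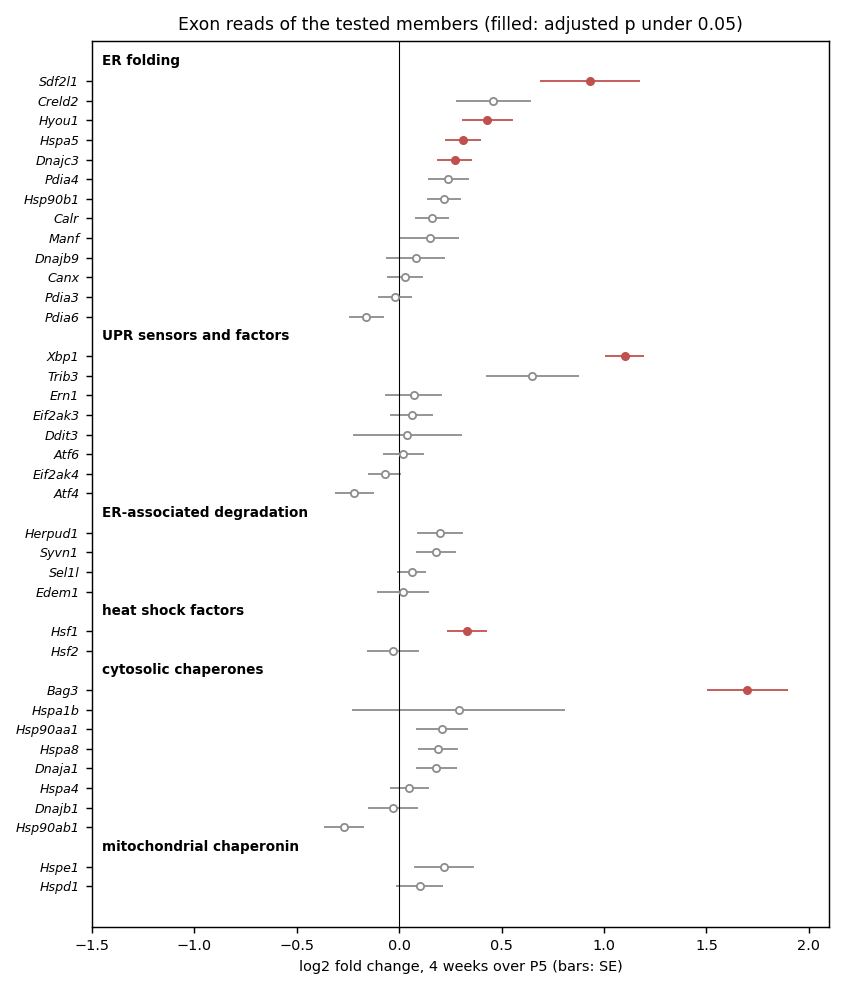
Log2 fold change of exon reads, 4 weeks over P5, for the 37 tested members grouped by role and sorted within each group, with bars for the SE. Filled points have an adjusted p under 0.05. The 7 filled points all lie to the right of 0, from 0.27 for Dnajc3 to 1.70 for Bag3, and most open points lie within 0.3 of 0.

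In the cytosol, Bag3 was 3.26-fold higher at 4 weeks, the largest fold among the members. It encodes a cochaperone of HSP70 with a role in selective autophagy and is a known target of HSF1. Bag3 (chr7:128523583-128546981) had 17.2, 14.3, 17.3 and 20.1 CPM at 4 weeks, against 5.45, 4.51, 5.98 and 5.22 CPM at P5. Every 4-week library lay far above the highest P5 library. The log2 fold change was 1.70 (SE 0.198, adjusted p = 6.11e-05), and leaving out any 1 library kept it between 1.62 and 1.77 with its call. It rested on 440 exon reads over the 4-week libraries and 143 over the P5 libraries.

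Hsf1, the main heat shock transcription factor, had 70.6, 65.3, 73.7 and 69 CPM at 4 weeks, against 52.1, 52.5, 54 and 63 CPM at P5. The ages did not overlap, and the log2 fold change was 0.33 (SE 0.0986, adjusted p = 0.036). The call was lost on leaving out any library other than P5 replicate 4 or 4-week replicate 2, at adjusted p between 0.0747 and 0.0956. Hsf1 lies at chr15:76477362-76501155. Hsf2, a related factor, averaged 32.4 ± 1.64 CPM at 4 weeks and 33 ± 4.44 CPM at P5 (SD, n = 4 each).

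The abundant cytosolic chaperones did not pass the test, and their values leaned both ways. Hsp90ab1, the constitutive HSP90, had 1940.0, 2383.1, 2092.2 and 2075.3 CPM at 4 weeks, against 3045.7, 2433.7, 2446.9 and 2314.0 CPM at P5. The ages overlapped through 4-week replicate 2 and P5 replicate 4, and P5 replicate 1 was the highest. The log2 fold change was -0.27 (SE 0.0981, adjusted p = 0.0783), and it passed without 4-week replicate 2 (-0.34, adjusted p = 0.0365) and by DESeq2 (-0.28, adjusted p = 0.0266). Hsp90aa1, the inducible HSP90, averaged 323 ± 54.7 CPM at 4 weeks and 279 ± 45.4 CPM at P5 (SD, n = 4 each; log2 fold change 0.21, SE 0.128). Hspa8, the constitutive HSP70, had 1492.2, 1892.2, 1580.5 and 1659.1 CPM at 4 weeks, against 1645.7, 1295.0, 1335.7 and 1540.9 CPM at P5, with overlap (0.19, SE 0.0979, adjusted p = 0.221).

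Hspa4, a nucleotide exchange factor of HSP70, gave a log2 fold change of 0.05, and the J-domain cochaperones Dnaja1 and Dnajb1 gave 0.18 and -0.03. Hspd1 and Hspe1, the mitochondrial chaperonin and its lid, gave 0.10 and 0.22. The inducible HSP70 genes and Hspb1 were barely present. Hspa1a had 24 exon reads over the 4-week libraries and 24 over the P5 libraries, and Hspa1b had 48 at 4 weeks and 41 at P5. None of these reads were listed as unique, and the cause was not tested. Each of the 2 genes is listed 4 times, and Bag6, which is also listed 4 times, had no unique reads either. Hspa1a and Hspa1b are also nearly identical, so the split between them is uncertain. The small heat shock gene Hspb1 had 4 exon reads over the 4-week libraries and 5 over the P5 libraries. Hspa1a and Hspb1 were too low to be tested, and Hspa1b gave 0.29 (SE 0.521).

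Shared reads limit some of these levels. Uniquely mapped reads were 15% of the exon reads of Hspa8, 35.3% of those of Hsp90aa1, 42.5% of Hspd1, 52.7% of Hspe1 and 59.7% of Dnaja1, and 83.4% or more in the other tested members apart from Hspa1b. With uniquely mapped exon reads alone, the number of members called was again 7, and all 7 were the same genes. The library kit does not mark strand, so reads of a gene and of an overlapping partner on the opposite strand were not separated. The longest such exon overlap was 608 bases, between Dnaja1 and Smu1. Gene spans in RefSeq and in the deposited counts differed by at most 1000 bases for 34 of 39 members. The widest difference was that of Manf, at -20491 bases (RefSeq minus deposited), so its reads may include those of other transcripts.

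Levels of different genes were compared per kb of exon. Hsp90ab1 was the most abundant member, at 847 CPM per kb at 4 weeks and 1021.2 CPM per kb at P5, followed by Hspa8 with 787 CPM per kb at 4 weeks and 691 CPM per kb at P5. Calr led the ER members with 231 CPM per kb at 4 weeks and 206 CPM per kb at P5, and Hspa5 had 126 CPM per kb at 4 weeks and 101 CPM per kb at P5. Xbp1 reached 69.2 CPM per kb at 4 weeks and 32.3 CPM per kb at P5, above the levels of all 3 sensors at 4 weeks and between those of Ern1 and Atf6 at P5. Bag3, with 6.64 CPM per kb at 4 weeks and 2.04 CPM per kb at P5, was among the scarcest tested members at both ages.

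**Figure D3:**
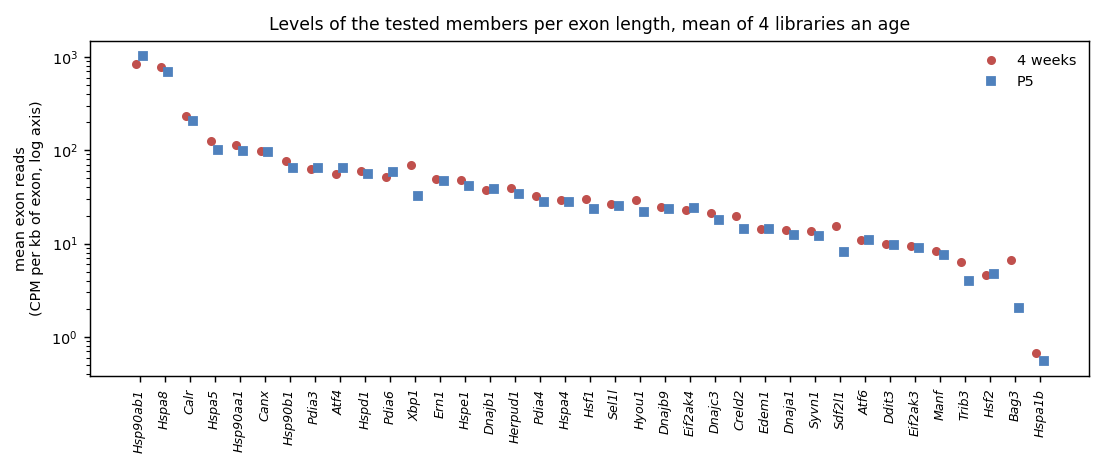
Mean exon reads per kb of exon (CPM per kb, log axis) of the tested members at 4 weeks (circles) and P5 (squares), each the mean of 4 libraries, sorted by the mean of both ages. Levels span from about Hsp90ab1 (847 at 4 weeks, 1021.2 at P5) down to Hspa1b (0.673 at 4 weeks, 0.556 at P5), and the symbols of most genes nearly touch, with Xbp1, Sdf2l1 and Bag3 as the widest gaps.

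Libraries of an age varied among themselves over many members at once. Replicate 2 was the highest of the 4-week libraries for 18 of 37 members and replicate 3 the lowest for 17, while P5 replicate 1 was the highest of its age for 14 and P5 replicate 2 the lowest for 16. Such counts were not made over all tested genes, so they do not show whether this is particular to the members. Summed over ER folding members, the level ran between 1961.0 and 2323.7 CPM at 4 weeks and between 1784.0 and 2049.5 CPM at P5, so the ages overlapped. The 10 cytosolic chaperones summed to between 4066.6 and 5012.0 CPM at 4 weeks and between 4262.1 and 5337.0 CPM at P5, most of it Hsp90ab1 and Hspa8. Among members with a mean of at least 25 CPM, the coefficient of variation had a median of 9.09% at 4 weeks and 11.1% at P5, beside 9.4% at 4 weeks and 10.4% at P5 over all genes at that level. Sel1l was the steadiest member at both ages, at 4.1% at 4 weeks and 1.94% at P5. P5 replicate 2 is the library with the macrophage markers and 4-week replicate 3 the one with Car1. Without both, a choice made after seeing the data, 4 ER members were called and 1 other, with Xbp1 at 1.14 (adjusted p = 2.54e-05) and Bag3 at 1.63 (adjusted p = 0.000684), while Dnajc3 and Hsf1 were lost. Whether RNA of other cells had a part in the modest calls was not tested further.

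**Figure D4:**
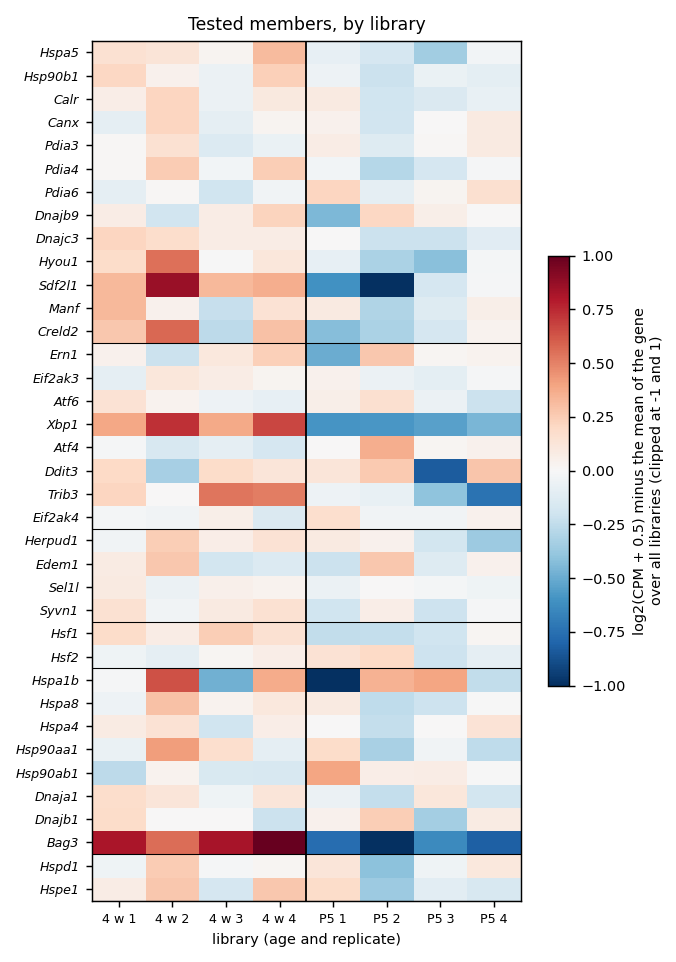
Heat map of the 37 tested members (rows, with lines between roles in the order of the text) in 4-week libraries (left 4 columns) and P5 libraries (right 4 columns). Colour is log2(CPM + 0.5) minus the mean of the gene over all libraries, clipped at -1 and 1. Xbp1 and Bag3 are red in all 4-week columns and blue in all P5 columns, and replicate 2 at 4 weeks is the reddest column for Hyou1 (174 CPM), Sdf2l1 (22.4 CPM) and Creld2 (33.8 CPM).

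Intron reads of the same libraries gave a second readout, since introns are found in RNA that is not yet spliced. They were 60.1% to 68.7% of the reads of genes with an mRNA model. Among marker genes without exon reads, they ran from none for Ctsg to 13 at 4 weeks and 16 at P5 for Cd3g. Whether all of them come from unspliced RNA of the gene was not tested. Of 35 members tested, 3 were higher and 3 lower at 4 weeks, beside 8.86% of tested genes higher and 9.01% lower. Xbp1 was higher in introns too (log2 fold change 0.59, SE 0.173, adjusted p = 0.0356), with 922 intron reads over the 4-week libraries and 585 over the P5 libraries. Canx (0.70, SE 0.129, adjusted p = 0.00334) and Herpud1 (1.07, SE 0.214, adjusted p = 0.0055) were higher in introns, where exon reads gave 0.03 and 0.20. Edem1 (-0.50, adjusted p = 0.0214), Hspa4 (-0.37, adjusted p = 0.0381) and Dnaja1 (-0.56, adjusted p = 0.00439) were lower in introns, where exon reads gave 0.02, 0.05 and 0.18.

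Bag3 had 727 intron reads over the 4-week libraries and 524 over the P5 libraries, for a change of 0.42 on the log2 scale (SE 0.242, adjusted p = 0.255). Hspa5 and Hyou1 gave 0.46 and 0.84 in introns, at adjusted p = 0.0706 and 0.087. Sdf2l1 had too few intron reads to test. The difference between exon and intron changes was not itself tested, and an intron count may also hold reads of other transcripts inside the gene.

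**Figure D5:**
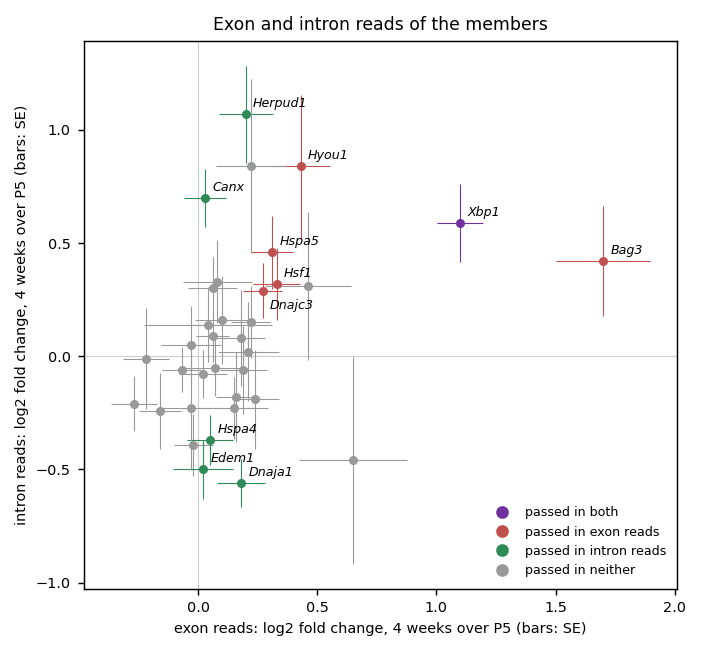
Log2 fold change, 4 weeks over P5, in exon reads (horizontal) and in intron reads (vertical) for the members tested in both, with bars for the SE. Named points passed in 1 readout or in both. Only Xbp1 passed in both (1.10 in exons, 0.59 in introns), while Bag3 lies far right with 0.42 in introns and Herpud1, Canx, Edem1, Hspa4 and Dnaja1 passed in introns alone.

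The authors' deposited table holds their own test of the ages, with a corrected p-value for each gene. In the authors' deposited table, 3 members had a corrected p under 0.05: Xbp1 (2.3e-15), Bag3 (1.52e-14) and Sdf2l1 (0.0086). The authors' deposited table gave a corrected p of 0.0968 for Hyou1, 0.147 for Hspa5, 0.173 for Hsf1 and 0.306 for Dnajc3.

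Other genes of the same pathways were read from lists of 116 symbols, of which 105 were tested. Of these 105, 13 were higher and 3 lower at 4 weeks, beside the 8.55% of all tested genes that were higher and 7.99% that were lower, and the median log2 fold change was 0.019. The counts for single groups below stand beside the same shares and are small. The 12 with the smallest p-values are named here with their values. Fkbp5, a cochaperone of HSP90 induced by glucocorticoids, had 155, 125, 163 and 170 CPM at 4 weeks, against 63.5, 80.8, 64 and 84.3 CPM at P5 (1.07, SE 0.121, adjusted p = 4.92e-05), though none of its reads were listed as unique and it is listed on 2 contigs. Hsph1, the HSP110 partner of HSP70, had 120, 164, 107 and 119 CPM at 4 weeks, against 65.6, 44.5, 49.8 and 75.6 CPM at P5 (1.11, SE 0.167, adjusted p = 0.000528). Its relative Hspa4l had 72.2, 79.6, 84.8 and 77.7 CPM at 4 weeks, against 41.6, 43.1, 50.4 and 42.3 CPM at P5 (0.83, SE 0.102, adjusted p = 0.000104). So Hsph1 and Hspa4l, exchange factors of HSP70 as Hspa4 is, were higher at 4 weeks, and Hspa4 was not called.

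In the ER, 6 of 39 other tested genes were higher at 4 weeks and 2 lower. Wfs1, an ER membrane protein, averaged 8.23 ± 2.95 CPM at 4 weeks and 2.71 ± 0.949 CPM at P5 (log2 fold change 1.61, adjusted p = 0.0102). Dnajb11, another BiP cochaperone, averaged 35.3 ± 1.62 CPM at 4 weeks and 25.6 ± 2.54 CPM at P5 (0.46, adjusted p = 0.0177). Derl2, a channel component of ER-associated degradation, averaged 31.2 ± 1.17 CPM at 4 weeks and 22.4 ± 2.57 CPM at P5 (0.48, adjusted p = 0.0205), with 4.9% of its reads unique. Creb3l2, a membrane-bound factor of the ATF6 type, and Ddrgk1, an adaptor of UFM1 ligation at the ER, were higher by 0.37 and 0.40 (adjusted p = 0.0154 and 0.0228). Erp29, a lumenal folding factor, was lower, with 49.9 ± 7.22 CPM at 4 weeks and 75.1 ± 6.49 CPM at P5 (-0.59, adjusted p = 0.00388). Vcp, the ATPase that pulls proteins out of the ER, was lower too, by 0.27 on the log2 scale (adjusted p = 0.0229). All errors are SD over 4 libraries. Several of these calls were lost on leaving out single libraries, at adjusted p between 0.0501 and 0.0724: Creb3l2 without 4-week replicate 1 or 4, Dnajb11 without P5 replicate 3 or 4-week replicate 4, Derl2 without P5 replicate 1 or 4 or 4-week replicate 3, Ddrgk1 without P5 replicate 1 or 3 or 4-week replicate 3, and Vcp without P5 replicate 3 or 4-week replicate 1 or 3.

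Among other cytosolic genes 4 of 38 were higher and 1 lower. The lower one was Cct2, a subunit of the chaperonin for actin and tubulin, with 219 ± 4.69 CPM at 4 weeks and 271 ± 23.1 CPM at P5 (SD, n = 4 each), for a log2 fold change of -0.31 at adjusted p = 0.0135 (0.0514 without 4-week replicate 4). Of 13 mitochondrial genes, 1 was higher, the protease Htra2, with 43.5 ± 4 CPM at 4 weeks and 28.6 ± 4.51 CPM at P5 (SD, n = 4 each), for a log2 fold change of 0.60 at adjusted p = 0.00762. Of 15 tested genes of the integrated stress response, which PERK and GCN2 feed, 2 were higher and 0 lower, and the median log2 fold change was -0.143. The 2 were Sesn2, a stress-induced inhibitor of growth signalling, and Eif2ak2, the kinase PKR, both with overlap between the ages, and named after their values were seen. Leaving out single libraries ended each call in 6 of 8 cases, all but P5 replicate 2 and 4-week replicate 2 for Eif2ak2 and all but P5 replicate 4 and 4-week replicate 2 for Sesn2.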

How the data were processed

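Per the labels' protocols, cDNA of sorted cells was made into libraries by Nextera XT, a kit without strand information. The authors deposited read counts per gene over exons, introns and junctions, unique and total, RPKM values, and in 1 file the p-value and corrected p-value of their own test, per the file headers. Per the submitters' processing notes the genome build was mm10. Neither aligner nor counting program is named in the sources used here. RPKM were not tested.

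Total exon reads of genes with an mRNA model were used, with 969 genes summed over copies on several contigs. In 1 file, 24 gene names turned into dates were restored by row order. The test was edgeR 4.0.16 in R 4.3.3 (TMM, filterByExpr, quasi-likelihood, age alone, all 8 libraries), adjusted by Benjamini-Hochberg over the 12235 genes kept. Standard errors are approximate, taken as the log2 fold change over the root of the F value. CPM are on the TMM scale. Intron reads were tested likewise. The steps were tested on simulated data.

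The members and the lists were chosen with earlier results of these data known. All members are named, those called and 10 fixed ones with every library, and of the other genes those called, at most 12 by smallest p. Sesn2 and Eif2ak2 were added after their values were seen. The reads carry no molecular identifiers. Alternatives were the replicate block, each library left out, other filters, DESeq2 1.42.0, its size factors, limma-voom 3.58.1, unique, gene or intron reads, copies apart, and Y-linked reads (over 100) as a covariate or as a condition. Figures used matplotlib 3.10.9.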

Additional observations from a re-analysis of the deposited data

Results flagged for a closer look

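In 74 groups of 4 libraries, each a member at 1 age, the gap between an extreme library and its nearest neighbour was compared with the range of the group, and 2 groups exceeded the 95% critical value of Dixon's test. Chance gives about 1 in 20. Sdf2l1 had 22.4 CPM in 4-week replicate 2, and the other 4-week libraries lay between 15.3 and 15.7 CPM. Atf4 had 134 CPM in P5 replicate 2, and the other P5 libraries lay between 104 and 107 CPM.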

How the results depend on the processing

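Xbp1 kept its call in all 21 alternatives tried, Bag3 in 20 (not in intron reads), Sdf2l1 in 15 of 20, Hspa5 in 14 of 21, Hyou1 in 12, Hsf1 in 8 and Dnajc3 in 7. Leaving out a library also brought calls to members outside these 7. Without 4-week replicate 2, 6 members were called, 4 of them among the 7. Without 4-week replicate 3, 6 were called, 5 of them among the 7. Against 5 ER members higher and 0 lower, the replicate block gave 2 higher, total gene reads 1, intron reads 3 higher and 1 lower, Y-linked reads as a covariate 1, only libraries with Y-linked reads 1, and leaving out single libraries 2 to 5. Against 2 cytosolic and mitochondrial members higher and 0 lower, the higher count was 1 under the block, no filter, total gene reads, both Y settings and without P5 replicate 2 and 4-week replicate 3 together, 0 in intron reads, and 1 to 2 without single libraries. The lower count was 1 by DESeq2 and in total gene reads, 2 in intron reads, and 0 to 1 without single libraries. Over all genes, against 1046 higher and 977 lower, the Y covariate gave 608 and 628, only libraries with Y-linked reads 638 and 619, and the block 577 lower. The 2 Y settings rest on P5 replicates 2 and 4 alone for that age. Log2 fold changes that turned to a call on the other side were those of Edem1 (-0.50) and Hspa4 (-0.37) in intron reads, and of Dnaja1 in intron reads (-0.56) and total gene reads (-0.27). The cause was not tested. Of 626 further values of uncalled members, 48 changed sign with no call on either side. For same-numbered libraries, the deviations from the age means correlated at -0.0309, -0.236, -0.0955 and -0.0517. The column headers number 4-week replicates 1 and 2 in the reverse order. By that order the values were 0.126 (4-week replicate 2 with P5 replicate 1) and 0.0237 (4-week replicate 1 with P5 replicate 2). The check thus cannot settle whether libraries were paired, and the block pairs replicate numbers only. Low read numbers limit Hspa1b, with 48 exon reads at 4 weeks and 41 at P5, and also Trib3, Ddit3, Bag3 and Sdf2l1.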

Other observations

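Atf3, a stress factor of the integrated stress response that was too low to be tested, averaged 0.399 CPM at 4 weeks and 2.88 CPM at P5. The P5 mean rested on 10.3 CPM in P5 replicate 2, the library with the macrophage markers and the highest Atf4. The 9 immediate early genes summed to between 1599.1 and 2078.0 CPM at 4 weeks and between 1335.9 and 3180.7 CPM at P5, with the same library highest. The sum joins changes in both directions. In exon reads, Jun was higher at 4 weeks (log2 fold change 1.02, adjusted p = 0.00454 by edgeR). Junb (-0.80, adjusted p = 0.0114) and Egr1 (-0.65, adjusted p = 0.0138) were lower, and the rest were not called. Jun was 189 CPM in P5 replicate 2 and 203 CPM in P5 replicate 1.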
